A study of Rattus norvegicus with 31 samples.

Results

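The MAP kinase cascade genes were taken as every non-control probe on the array whose gene name starts with Mapk, Map2k, Map3k, Map4k or Mapkapk and a number. This gave 74 probes for 46 genes, of 41012 probes in all. They fall into 13 MAP kinase genes with 24 probes, 7 MAP kinase kinase genes (Map2k) with 8 probes, 14 MAP kinase kinase kinase genes (Map3k) with 26 probes, and 4 genes of the tier above them (Map4k) with 5 probes. A further 3 genes with 3 probes encode kinases that MAP kinases activate (Mapkapk), and 5 genes with 8 probes carry names of interacting or similar proteins, such as Mapk8ip1. The MAP kinase cascade passes a signal down a chain of kinases: a MAP3K phosphorylates a MAP2K, which phosphorylates a MAP kinase of the ERK, p38 or JNK family. The MAP kinase then phosphorylates transcription factors and further kinases. In the lymphocytes and monocytes of blood these chains run below antigen receptors, Toll-like receptors and cytokine receptors, and most of their control is by phosphorylation of proteins, which an RNA measurement does not see.

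The RNA came from peripheral blood mononuclear cells (PBMC) of rats, measured on 2-colour arrays, 1 per sample. CR-L (n = 13) were offspring of dams whose food was restricted by 20% on days 1 to 12 of pregnancy, and the pups were given leptin, a hormone of fat cells that is also present in milk, until postnatal day 21, in doses that went up from 1.0 to 43.8 ng and were set at 5 times the leptin taken in with milk. CR (n = 11) were offspring of dams restricted in the same way and had normal lactation. WT (n = 7) were offspring of unrestricted dams with normal lactation. All groups were then fed chow freely for 4 months before blood was drawn. The comparison of CR with WT asks what the restriction of the dam left in the adult offspring, that of CR-L with CR asks what leptin in lactation changed, and that of CR-L with WT sets restriction together with leptin against neither. The 31 samples came from at most 16 litters, so that some animals share a dam, and the labels used here give neither the litter nor the sex of a sample. The p-values treat the animals as independent and may be too small for that reason.

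Each value below is a log2 ratio of the sample (red) to 1 pool of RNA from 5 samples per group (green), and a difference is between group means on that scale. The median red intensity of an array ranged from 69.8 to 235 and its median local background from 27 to 30.5. The scanner marked 57.5% to 83.6% of the red spots as well above that background. Precision is limited by how many arrays each group has. In RNA of mixed cells fewer cells of a type and less RNA per cell cannot be told apart. T cell markers (12 of 12 measured) ranged from -0.17 to 0.26 in CR-L (mean 0.03), from -0.16 to 0.18 in CR (mean 0.05) and from -0.19 to 0.17 in WT (mean -0.02). Monocyte markers (9 of 10) ranged from -0.64 to 0.51 in CR-L (mean -0.00145), from -0.47 to 0.27 in CR (mean -0.08) and from -0.27 to 0.33 in WT (mean 0.07), and all of these T cell and monocyte markers were well above background. Granulocyte markers (9 of 12) were lower on average in both restricted groups, from -0.87 to 1.11 in CR-L (mean -0.09) and from -0.80 to 0.34 in CR (mean -0.12), against -0.39 to 0.86 in WT (mean 0.175). Of these 9 granulocyte markers, 6 were well above background on all 31 arrays. B cell markers (8 of 10) ran the same way, from -0.82 to 0.30 in CR-L (mean -0.195) and from -0.97 to 0.39 in CR (mean -0.11), against -0.49 to 0.28 in WT (mean 0.07). Platelet markers (9 of 11) ranged from -2.94 to 0.80 in CR-L (mean -0.39), from -0.57 to 0.79 in CR (mean 0.01) and from -1.47 to 0.29 in WT (mean -0.395), and erythroid markers (10 of 11) from -2.17 to 1.53 in CR-L (mean -0.05), from -1.98 to 0.81 in CR (mean -0.57) and from -0.99 to 0.14 in WT (mean -0.38). NK and cytotoxic markers (9 of 9) ranged from -1.10 to 0.63 in CR-L (mean -0.04), from -0.57 to 0.62 in CR (mean -0.02) and from -0.48 to 0.36 in WT (mean -0.16). No marker of these 7 lists passed the test in either comparison with WT, and the groups overlapped at each list. One array, CR-L 5, held the lowest value at 19 and the highest at 8 of the 68 tested member probes. The next array held 9 such places in all. The same count over all tested probes is not given here, so that this cannot be read as particular to the members. Without CR-L 5 both calls in CR-L and the call in CR given below were kept, and Mapk14 was added in CR-L.

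Of the 74 member probes, 68 probes of 43 genes had a red signal well above background on 7 or more arrays of 31 and were tested. Mapk12 (p38 gamma), Mapk13 (p38 delta) and Map3k7cl, each with 1 probe, were among those that were not, as were 1 of 2 probes of Map3k13 and 1 of 2 of Mapk8ip1. In CR-L against WT, 2 member probes of 68 (2.94%) passed an adjusted p of 0.05, where 3.48% of all 26721 tested probes did. Map3k11 was higher, as were 2.04% of all probes, and 1 probe of Map3k9 was lower, as were 1.44%. In CR against WT, only the same Map3k9 probe passed (1.47%), where 0.483% of all probes did, 0.378% higher and 0.105% lower. At an unadjusted p under 0.05 there were 9 member probes in CR-L against WT (13.2%, with 16.5% of all probes) and 4 in CR against WT (5.88%, with 12.2% of all). Between CR-L and CR no member passed, and 0% of all probes did in limma's test, with 2.22% of all probes and 1 member probe (1.47%) at an unadjusted p under 0.05. The share of members called in CR-L was close to that of the whole array, and 1 probe does not set the share in CR apart.

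Map3k9 has 2 probes, of which 1 was called, and both are printed because the result at this gene turns on which of them is read. Both lie on the minus strand of chromosome 6 in the rat build rn4, A_44_P409674 at chr6:105593440-105593499 and A_44_P768805 at chr6:105592593-105592652 with starts 847 bases apart. Their starts in the transcript are given as 3353 for A_44_P409674 and 4492 for A_44_P768805, further apart than on the chromosome. Whether both probes lie in the same transcript was not looked up. Sequences are from the scanner files, 5′ to 3′, with no base singled out by capitals.
A_44_P768805: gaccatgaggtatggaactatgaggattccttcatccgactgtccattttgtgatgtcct
A_44_P409674: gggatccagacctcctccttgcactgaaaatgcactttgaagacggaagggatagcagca

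Map3k9 encodes a mixed-lineage kinase, a MAP3K known to activate the JNK pathway. At probe A_44_P768805 its lowest, median and highest log2 ratios were -0.69, -0.12 and 0.16 in CR-L, -0.51, -0.14 and 0.25 in CR, and 0.125, 0.35 and 0.49 in WT. In 12 of 13 CR-L samples and 10 of 11 CR samples the value lay below all 7 WT samples, and the lowest WT sample was overlapped by 1 sample of each group. The mean was -0.14 ± 0.26 in CR-L (SD, n = 13), -0.12 ± 0.23 in CR (n = 11) and 0.34 ± 0.11 in WT (n = 7). The difference from WT was -0.48 ± 0.10 (SE) in CR-L, 1.40-fold lower, with an adjusted p of 0.00509 in limma's test, and -0.47 ± 0.10 in CR, 1.38-fold lower, with an adjusted p of 0.0337. CR-L and CR differed by -0.02, with a 95% interval from -0.20 to 0.16.

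**Figure D1:**
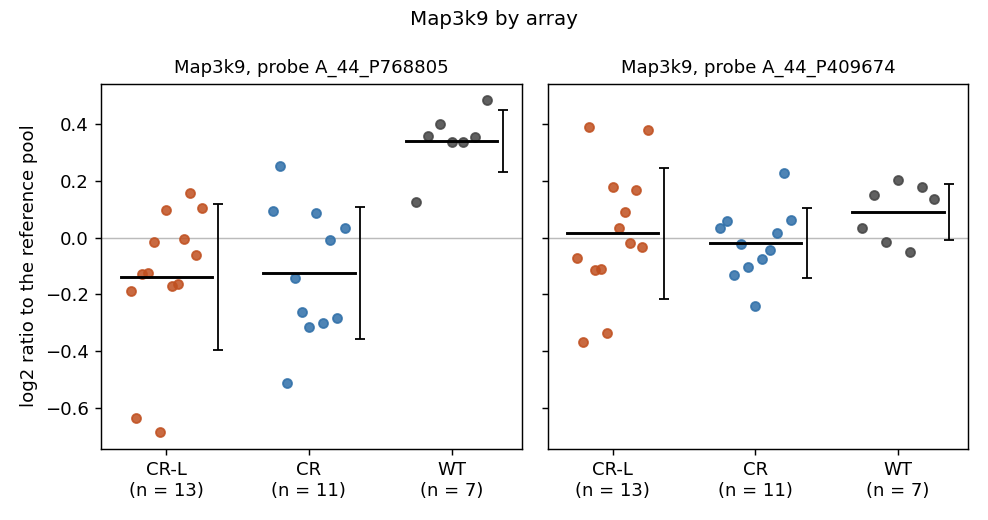
Log2 ratio to the reference pool (vertical axis) at the 2 probes of Map3k9, 1 point per array, for CR-L, CR and WT from left to right; black bars are group means and the lines beside them SDs. At the called probe on the left 12 of 13 CR-L and 10 of 11 CR arrays lie below all WT arrays, while at the other probe the groups overlap.

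A slide held up to 4 arrays and was also 1 scan, and 7 of the 8 slides held 1 WT array each. Within a slide the mean of the CR-L arrays, or of the CR arrays, was set against that WT array. The same WT arrays serve both groups, so that the counts of slides for CR-L and CR are not independent. At the called probe CR-L lay below the WT array of its own slide on 7 of 7 slides, by -0.63 to -0.33, and CR on 7 of 7, by -0.73 to -0.03. With the slide as a block the differences were -0.50 (adjusted p = 0.00746, limma) in CR-L and -0.49 (adjusted p = 0.0414) in CR. The call in CR-L held with each of the 31 arrays left out in turn, with adjusted p up to 0.0156. The call in CR held in 20 of those 31 fits and was lost without WT 2, 3, 4, 5, 6 or 7 or without CR 3, 4, 5, 6 or 8, where the difference ran from -0.47 to -0.43 and the adjusted p from 0.0517 to 0.0923. The lowest values at this probe were those of CR-L 6 (-0.69), CR-L 2 (-0.64) and CR 3 (-0.51). The same 3 arrays were the lowest of all 31 in granulocyte markers, at -0.87, -0.855 and -0.80, and had -0.64, -0.27 and -0.47 in monocyte markers. Other arrays did not go together in this way. CR-L 10 had -0.50 in granulocyte markers and -0.006 at the probe, WT 5 had -0.39 and 0.34, and CR 6 had 0.34 and -0.32. A correlation of the 2 over all 31 arrays is not given here. With these 3 arrays left out together, a choice made after seeing the data, the differences were -0.39 in CR-L (adjusted p = 0.00553, limma) and -0.43 in CR (adjusted p = 0.00913). Leaving them out also took away the 3 lowest values at this probe. The SE fell with it, from 0.101 to 0.073 in CR-L and from 0.104 to 0.0745 in CR. These p-values therefore say nothing about granulocyte content, whose part in the difference between the groups was not tested.

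**Figure D2:**
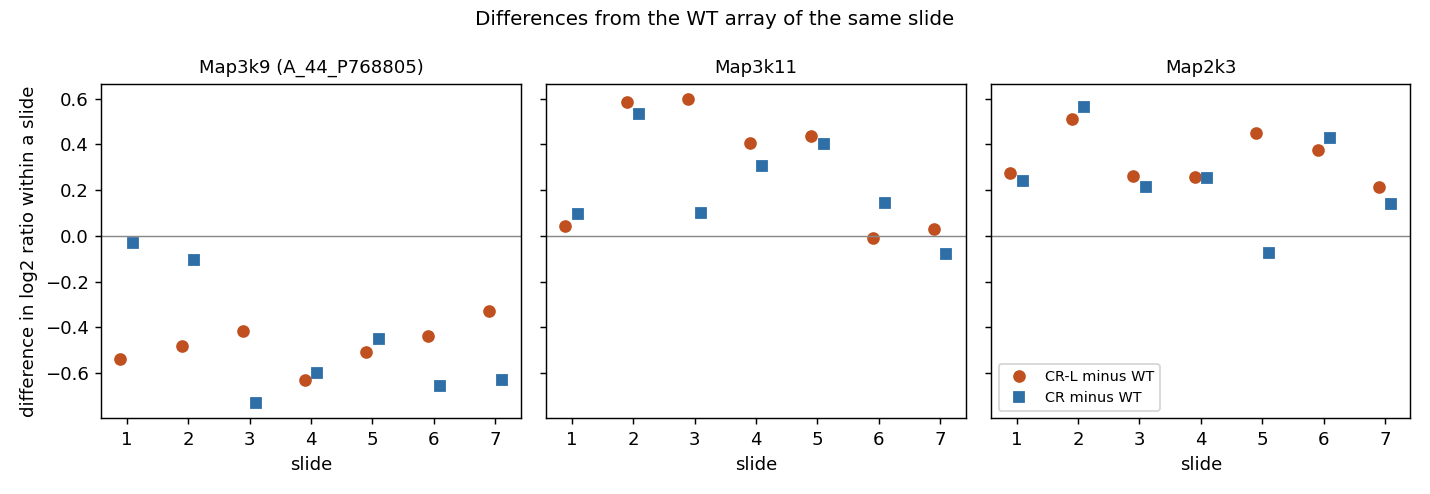
Mean of a group's arrays on a slide minus the WT array of the same slide (vertical axis, log2 ratio). The 7 slides with a WT array are on the horizontal axis, with CR-L as circles and CR as squares. Map3k9 lies below 0 on all of them, and Map3k11 and Map2k3 lie above 0 on most.

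At the other Map3k9 probe, A_44_P409674, the lowest, median and highest values were -0.37, -0.02 and 0.39 in CR-L, -0.24, -0.02 and 0.23 in CR, and -0.05, 0.14 and 0.20 in WT. The groups overlapped, with CR-L spread to both sides of WT. The difference from WT was -0.08 ± 0.08 in CR-L (adjusted p = 0.704, limma) and -0.11 ± 0.08 in CR (adjusted p = 0.636). The gap between the 2 probes was -0.16 ± 0.17 in CR-L, -0.11 ± 0.22 in CR and 0.25 ± 0.13 in WT (SD). It differed from WT by -0.41 in CR-L (two-sided exact permutation p = 5.16e-05, adjusted over 4 such tests 0.000206) and by -0.36 in CR (exact p = 0.00141, adjusted 0.00283). These tests cover probe pairs picked after their values had been seen, so that the p-values are too small for an unselected pair, and the cause of the gap was not tested.

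Map3k11 encodes a close relative, the mixed-lineage kinase MLK3, which also activates JNK, and moved the other way. Its probe, A_44_P261243 at chr1:208325790-208325849 on the plus strand of rn4, gave a lowest, median and highest log2 ratio of -0.25, 0.07 and 0.40 in CR-L, -0.25, 0.05 and 0.07 in CR, and -0.52, -0.20 and 0.03 in WT. Above all WT samples lay 10 of 13 CR-L and 6 of 11 CR samples, and the rest overlapped with WT. The difference from WT was 0.29 ± 0.07 in CR-L, 1.22-fold higher, with an adjusted p of 0.0148 in limma's test. In CR it was 0.21 ± 0.07 with an adjusted p of 0.184, and CR-L and CR differed by 0.08, with an interval from -0.04 to 0.21, so that a difference between the restricted groups was not shown. Against the WT array of its slide Map3k11 was higher on 6 of 7 slides in CR-L and in CR, with differences from -0.01 to 0.60 in CR-L and from -0.08 to 0.53 in CR. With the slide as a block the difference in CR-L was 0.28 (adjusted p = 0.0368, limma). The call was lost without WT 2 (0.24, adjusted p = 0.0614) or WT 5 (0.26, adjusted p = 0.05), and with the red channel alone, without the pool, the difference was 0.195 with an adjusted p of 0.154.

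Map3k8 (Tpl2), the MAP3K through which Toll-like receptors reach ERK in macrophages, had the widest spread of all members, with an SD of 0.47 over the 31 arrays, at the 97.7th percentile of all tested probes. Its values ran from -1.39 to 0.38 with a median of 0.08 in CR-L, from -0.56 to 0.59 with a median of -0.24 in CR, and from 0.03 to 0.73 with a median of 0.30 in WT. In CR-L 6 of 13 samples and in CR 6 of 11 lay below all WT samples, while the others overlapped with WT. The difference from WT was -0.49 ± 0.20 in CR-L and -0.36 ± 0.20 in CR, with adjusted p of 0.189 and 0.499 in limma's test, and neither passed. The lowest value was that of CR-L 6, without which the CR-L difference was -0.39.

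**Figure D3:**
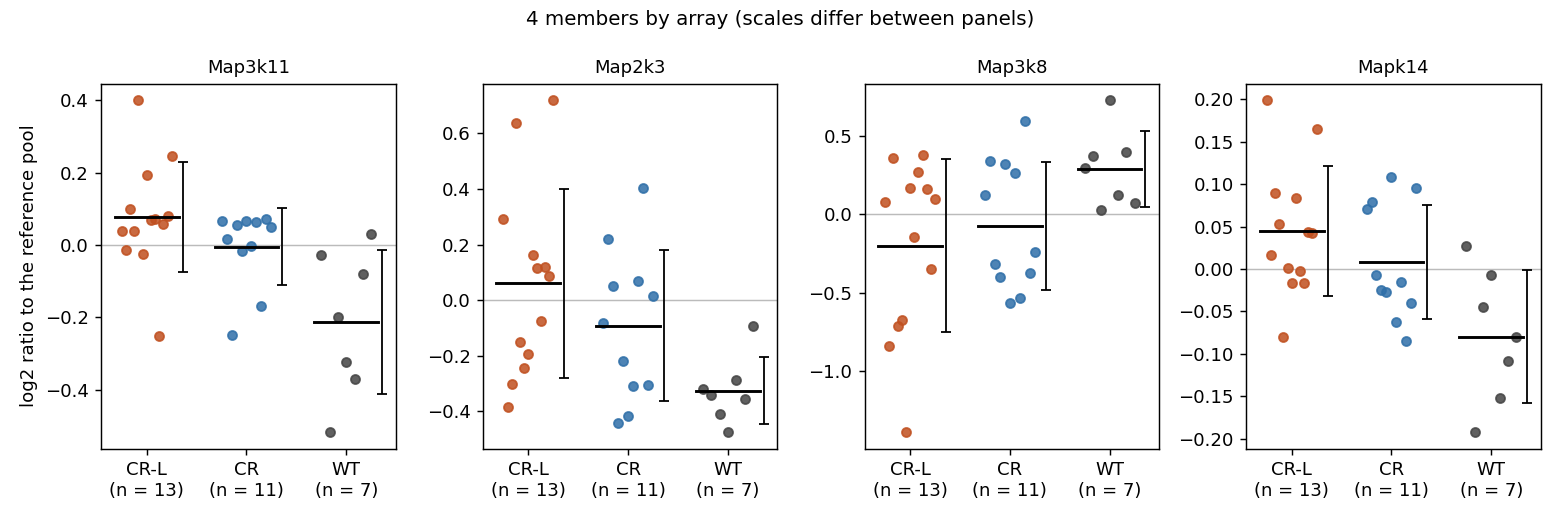
Log2 ratio to the reference pool (vertical axis, scales differ between panels) for Map3k11, Map2k3, Map3k8 and Mapk14 (probe A_43_P12479), 1 point per array, with group means as bars and SDs as lines. Map3k11 and Map2k3 sit higher in CR-L than in most of WT, and Map3k8 spreads from -1.39 to 0.73.

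The other MAP3K genes lay closer to WT. Map3k5 (ASK1, the stress-activated kinase) had 3 probes at -0.06 to 0.00 in CR-L and at -0.14 to -0.01 in CR, and Map3k7 (TAK1, which couples interleukin-1 and Toll-like receptors to p38 and JNK) had 2 probes at 0.02 and -0.04 in CR-L and both at 0.07 in CR. For Map3k1 (MEKK1) the 2 probes gave 0.11 and 0.02 in CR-L, and for Map3k14 (NIK, of the alternative NF-kappaB pathway) -0.16 and -0.01, none of them called. The probe of Map3k14 at -0.16 had its lowest value, -1.16, in CR-L 5, where the lowest was -0.28 in CR and -0.18 in WT, and without that array the CR-L difference was -0.07, again not called. CR-L 5 was also low at 1 probe of Map3k3 (-0.75), 1 of Map3k5 (-0.74) and that of Map4k1 (-0.67), and high at 1 probe of Mapk11 (0.76) and 1 of Map3k12 (0.64). Map3k2, Map3k3, Map3k4, Map3k6, Map3k10, Map3k12 and Map3k13 lay between -0.15 and 0.13 in CR-L and between -0.09 and 0.11 in CR, none of them called. Over the tier, 2 of 25 probes were called in CR-L against WT and 1 of 25 in CR against WT, with a median difference of -0.03 and -0.01.

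Among the MAP2K genes none of 8 probes was called. Map2k3, which activates p38, was nearest to it. With the 3 arrays lowest in granulocyte markers left out, a choice made after seeing the data, Map2k3 passed in CR-L (0.455, adjusted p = 0.044, limma). Its lowest, median and highest values were -0.38, 0.09 and 0.72 in CR-L, -0.44, -0.08 and 0.40 in CR, and -0.47, -0.34 and -0.09 in WT. Above all WT samples lay 8 of 13 CR-L and 6 of 11 CR samples, and the groups overlapped in the lower part. The difference was 0.39 ± 0.13 in CR-L (adjusted p = 0.0824, limma) and 0.23 ± 0.13 in CR (adjusted p = 0.485), and Map2k3 was above the WT array of its slide on 7 of 7 slides in CR-L, with differences from 0.21 to 0.51, and on 6 of 7 in CR, with differences from -0.08 to 0.56. Map2k6, the other activator of p38, differed from WT by -0.03 ± 0.07 in CR-L and -0.02 ± 0.07 in CR. The ERK kinases Map2k1 and Map2k2 were at 0.00 ± 0.07 and 0.06 ± 0.04 in CR-L, and Map2k4 and Map2k7, which activate JNK, at 0.09 and 0.01 (2 probes) and at 0.09, each with an interval that held 0. Map2k7 had an SD of 0.29 over the arrays and a 95% interval from -0.18 to 0.36 in CR-L.

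None of the 21 tested MAP kinase probes was called. Mapk14 (p38 alpha) had a higher mean than WT at all 3 probes in both groups, by 0.12, 0.10 and 0.10 in CR-L and by 0.09, 0.06 and 0.12 in CR. At A_43_P12479 the values ran from -0.08 to 0.20 with a median of 0.04 in CR-L, from -0.08 to 0.11 with a median of -0.02 in CR, and from -0.19 to 0.03 with a median of -0.08 in WT. All 13 CR-L samples lay above the WT median, and 7 of them above all WT samples. Against the WT array of its slide it was higher on 5 of 7 slides in CR-L, with differences from -0.03 to 0.26, and on 6 of 7 in CR, from -0.02 to 0.27. At its probe A_44_P286911 12 of 13 CR-L samples lay above the WT median, but at A_44_P360409 only 6 of 13 did. The adjusted p of A_43_P12479 in limma's test was 0.0736 in CR-L, and this probe passed without WT 1 (0.0469) or without CR-L 5 (0.0445). Mapk11 (p38 beta) gave 0.22 ± 0.11 and 0.03 ± 0.05 at its 2 probes in CR-L, with adjusted p of 0.303 and 0.806. The probe at 0.03, A_44_P449929, ran from -0.05 to 0.395 over the alternatives of processing given below and was not called in any.

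Mapk3 (ERK1) was not called, with a difference from WT of -0.04 in both groups and an interval from -0.15 to 0.06 in CR-L. The JNK genes Mapk8 (4 probes, -0.02 to 0.08 in CR-L) and Mapk9 (3 probes, -0.01 to 0.05) were likewise not called, and neither were Mapk10 at -0.05, Mapk4 at -0.01 or Mapk15 at 0.02. Some of these values depended on the processing. Over the alternatives given below, Mapk10 in CR-L ran from -0.52 to -0.05 and Mapk15 from -0.06 to 0.39. Mapk9 ran from -0.45 to 0.02 at A_44_P451014, and none of these was called. Mapk6 (ERK3) split by probe. At A_42_P727584 the values ran from -0.01 to 0.43 with a median of 0.25 in CR-L, from -0.08 to 0.42 with a median of 0.25 in CR, and from 0.16 to 0.67 with a median of 0.34 in WT, differing from WT by -0.17 ± 0.07 in both groups (adjusted p = 0.173 in CR-L and 0.312 in CR, limma). At its other probe the differences were 0.02 and 0.03, and the gap between the 2 probes differed from WT by -0.19 in CR-L (exact permutation p = 0.0368, adjusted 0.0491) and -0.20 in CR (exact p = 0.0597, adjusted 0.0597), again for a pair chosen after its values had been seen. Mapk7 (ERK5) was at 0.12 ± 0.06 in CR-L (adjusted p = 0.263, limma) and 0.06 ± 0.06 in CR, and Map2k5, its activator, at -0.07 ± 0.05 and -0.01 ± 0.05.

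Above and below the 3 tiers nothing was called. Map4k1 (HPK1, a kinase of lymphocytes) differed from WT by -0.05 ± 0.09 in CR-L and -0.04 ± 0.09 in CR, and Map4k2, Map4k3 and Map4k4 lay between -0.04 and -0.01 in CR-L. The kinases that p38 activates, Mapkapk2 (which controls the messenger RNA of inflammatory cytokines), Mapkapk3 and Mapkapk5, were at -0.03, 0.09 and -0.06 in CR-L and at -0.08, 0.02 and 0.00 in CR. The JNK scaffold Mapk8ip1 was at 0.09 ± 0.06 in CR-L and 0.10 ± 0.06 in CR, Mapk8ip3, another JNK scaffold, was at -0.03 and -0.07 in CR-L at its 2 probes, and Mapk1ip1 was at -0.01 in both groups. Mapk1ip1l gave the single unadjusted p under 0.05 between CR-L and CR among the members, with -0.07 ± 0.04 at A_44_P660512 (adjusted p = 1, limma).

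**Figure D4:**
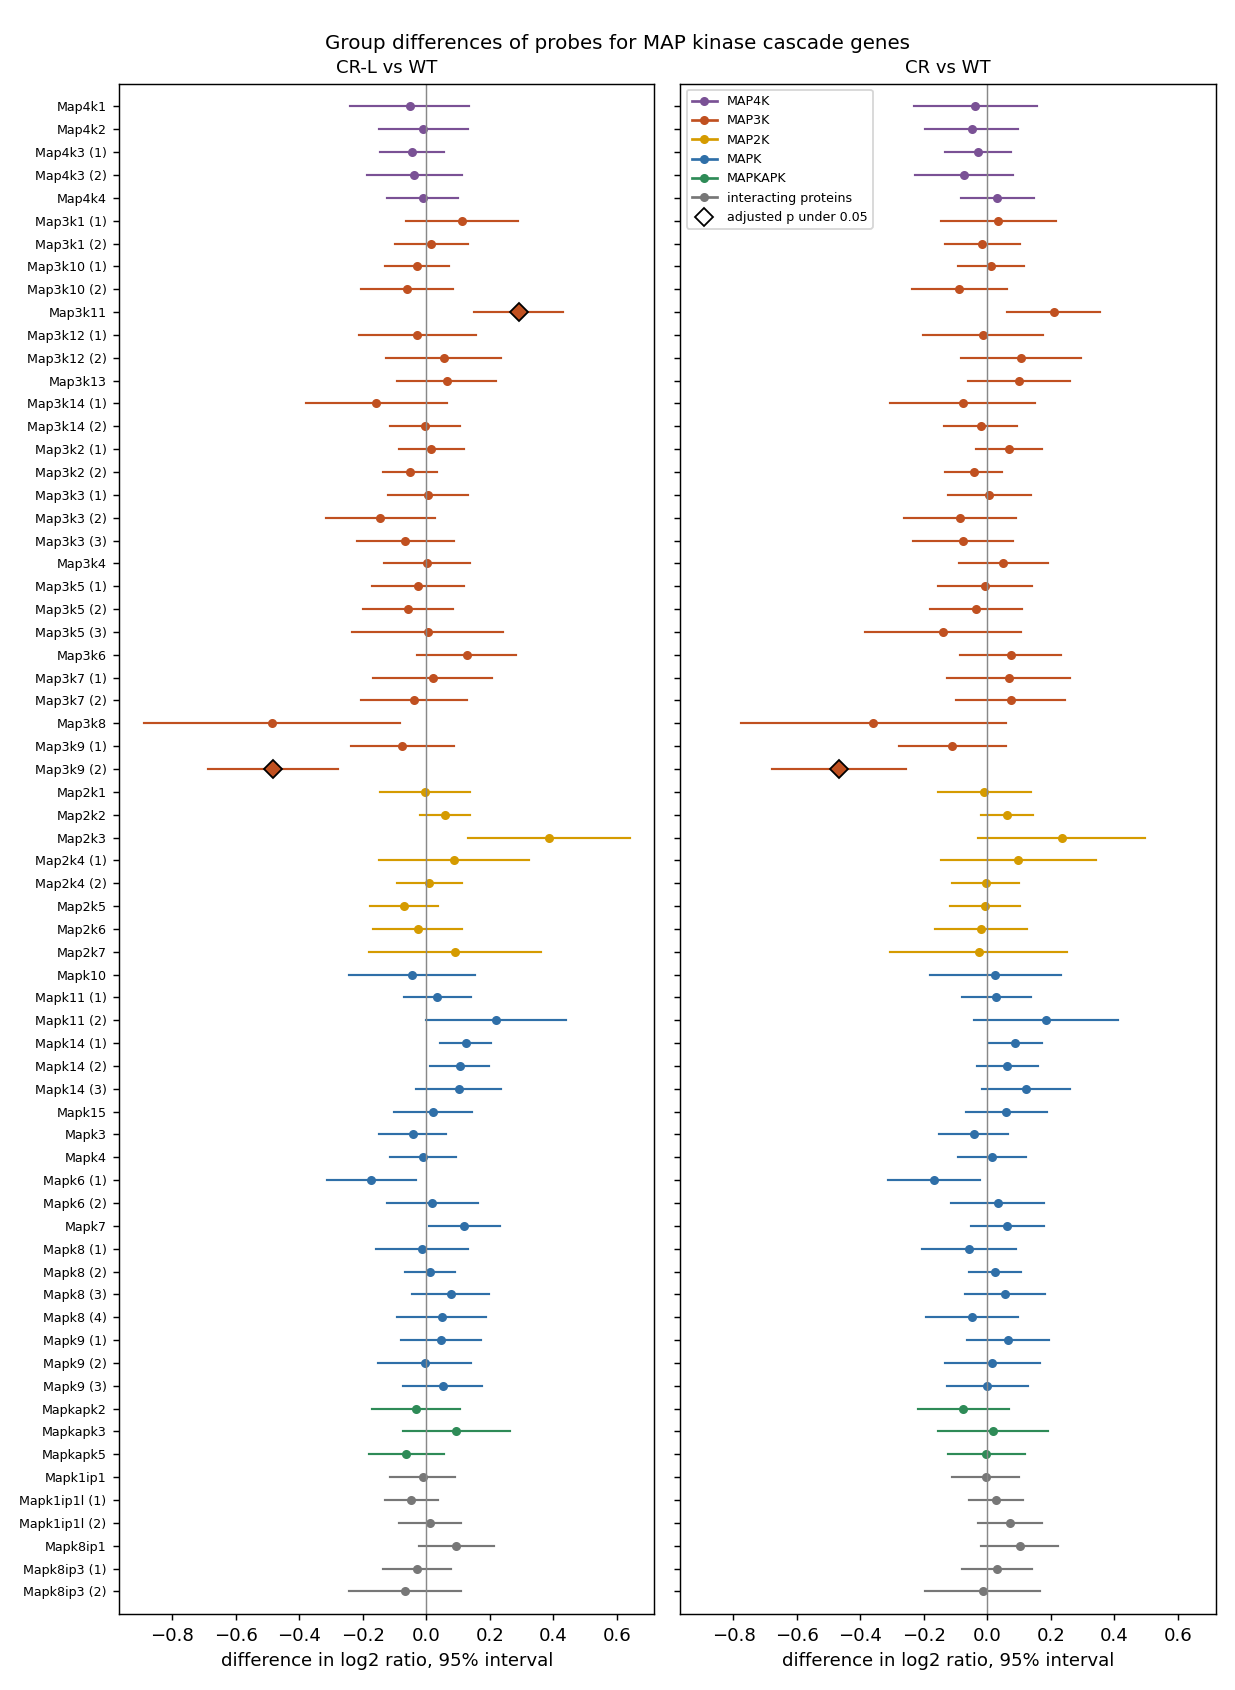
Difference in log2 ratio with its 95% interval (horizontal axis) for the tested probes but those of 1 gene, by tier from the top (MAP4K, MAP3K, MAP2K, MAPK, MAPKAPK, interacting proteins), for CR-L against WT on the left and CR against WT on the right; numbers in brackets tell the probes of a gene apart, and diamonds are differences with an adjusted p under 0.05. Map3k9 passes in both panels and Map3k11 in the left one, while most intervals cross 0.

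Over all 68 probes the median difference was 0.00 in CR-L against WT and 0.01 in CR against WT, beside 0.01 and 0.01 over all tested probes. A difference smaller than 0.1 in size was seen at 54 member probes in CR-L (79.4%, against 68.2% of all probes) and at 57 in CR (83.8%, against 71.2%). The 95% interval stayed within 0.25 on either side of 0 at 55 member probes in CR-L (80.9%, against 67% of all) and at 52 in CR (76.5%, against 68.5%). Between CR-L and CR it did so at 62 (91.2%, against 85.6%). These counts are of the main fit alone and do not cover the choice of processing, under which some probes moved further. Over the alternatives given below, Map3k10 in CR-L against WT ran from -0.03 to 0.35 at A_44_P440686 and from -0.36 to 0.14 at A_44_P440691. At such probes a narrow interval in the main fit does not show that nothing changed.

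Of the 19 genes with several tested probes, 9 had all their probes on 1 side of 0 in CR-L against WT and 10 in CR against WT, and Map3k9, Map3k14, Map4k3, Mapk11 and Mapk14 did so in both. The few probes of a gene can fall on 1 side of 0 by chance, and the share over all genes of the array is not given here. The median SD of a member over the 31 arrays was 0.15, beside 0.14 over all tested probes. After Map3k8 the widest spreads were those of Map2k3 (0.31), the called Map3k9 probe (0.30), Map2k7 (0.29) and 1 probe of Map3k5 (0.26).

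**Figure D5:**
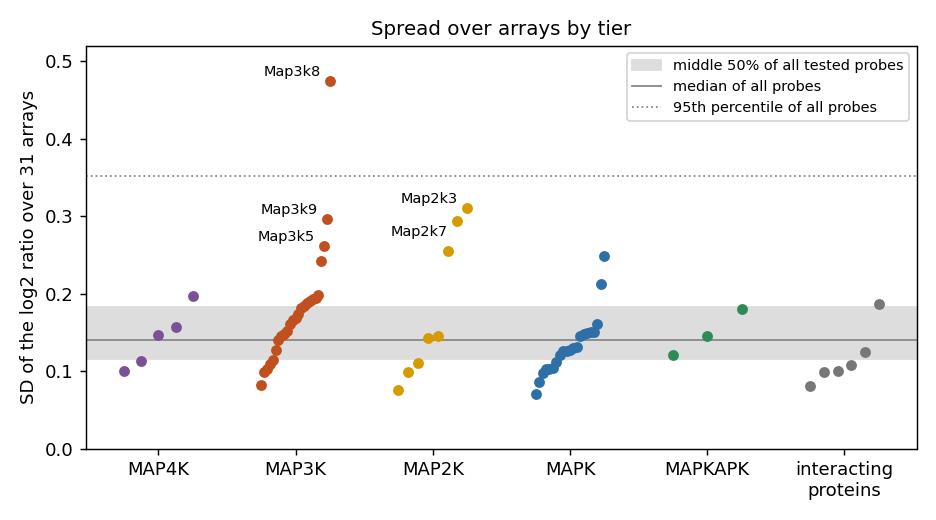
SD of the log2 ratio over the 31 arrays (vertical axis) for each tested member probe, by tier, against all 26721 tested probes (grey band, the middle 50%; line, the median of 0.14; dotted line, the 95th percentile of 0.35). Map3k8 lies above the dotted line and the other members below it.

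Around the cascade, 95 of 100 listed genes of 6 lists were measured, by 143 probes: phosphatases of MAP kinases, Ras and Raf, scaffolds and brakes, upstream adaptors, other kinases that MAP kinases activate, and target transcription factors. In CR-L against WT 2 of these probes were higher and 2 lower (2.8% called), and in CR against WT 1 was higher and 1 lower (1.4%), shares under and above the 3.48% and 0.483% of all probes. The median difference of a list ran from -0.05 (phosphatases) to 0.07 (other kinases) in CR-L and from -0.07 (phosphatases) to 0.11 (other kinases) in CR, beside 0.01 over all probes in both. Traf6, the adaptor between Toll-like receptors and TAK1, averaged -0.22 ± 0.30 in CR-L, -0.14 ± 0.35 in CR and 0.46 ± 0.29 in WT (SD), a difference from WT of -0.68 ± 0.14 in CR-L (adjusted p = 0.00488, limma) and -0.60 ± 0.14 in CR (adjusted p = 0.0477). Gadd45a, a stress gene whose protein binds MAP3K4, was lower in CR-L, with a difference of -0.31 ± 0.08 (adjusted p = 0.0247, limma), and gave -0.30 ± 0.08 in CR (adjusted p = 0.0776). Traf1, an adaptor of tumour necrosis factor receptors, was higher in CR-L by 0.40 ± 0.11 (adjusted p = 0.0383, limma) and gave 0.35 ± 0.11 in CR (adjusted p = 0.165). Creb1, a transcription factor downstream of ERK and p38, was higher at 1 of its 4 probes, by 0.26 ± 0.05 in CR-L (adjusted p = 0.00493, limma) and 0.24 ± 0.06 in CR (adjusted p = 0.0364). With each array left out in turn, Traf6 and Creb1 in CR-L passed in all 31 fits. Gadd45a in CR-L was lost without WT 5, 6 or 7 (adjusted p up to 0.0568), and Traf1 in CR-L in 10 fits, without WT 2, 4, 5 or 7 or without CR-L 2, 5, 6, 7, 8 or 12 (up to 0.0985). In CR, Creb1 was lost in 10 fits, without WT 1, 4, 6 or 7 or without CR 3, 4, 5, 6, 7 or 8 (up to 0.119). Traf6 in CR was lost in 22 fits, without WT 1, 2, 4, 5, 6 or 7, without CR 2, 3, 4, 6, 7, 8, 10 or 11 or without CR-L 1, 3, 4, 7, 8, 11, 12 or 13 (difference from -0.63 to -0.54, adjusted p up to 0.14). None of the phosphatase, Ras and Raf, scaffold or other kinase probes was called in either comparison.

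The probes whose log2 ratio over the 31 arrays was most like that of the called Map3k9 probe were Icam1 (Pearson r = 0.86, Spearman rho = 0.80), Rlim (0.83 and 0.82), Nfkbiz (0.82 and 0.71), Ankrd49 (0.82 and 0.76) and Nfkbie (0.82 and 0.76). The arrays share 1 pool and the group difference itself enters these coefficients, which are given as a description. With group means removed, r was lower for each of the 5, at 0.75 for Icam1, 0.695 for Rlim, 0.72 for Nfkbiz, 0.65 for Ankrd49 and 0.72 for Nfkbie.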

How the data were processed

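Members and gene lists were chosen with earlier results of these data known. Each array has its own deposited scanner output. In it, per the file headers, spot and local background intensity are as the scanner software gave them; the submitters' processing notes name Agilent Feature Extraction 10.7.3.1. Per the file headers, the software's log10 ratio (red over green) is dye-normalized. The deposited log2 table of the series has 1 median (8.17) in every column and followed the red intensity (r of at least 0.993), and its further processing is not given in the sources used here. Outlier and background flags are as deposited, per the file headers.

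Mean intensities were corrected in limma 3.58.1 (R 4.3.3) with normexp (offset 50), normalized by loess within arrays, and averaged over the spots of a probe. Of 45018 spots, 1639 were controls and were left out, as were 5483 outlier values (0.408%). A probe was tested where its red signal was well above background on 7 or more of the 31 arrays (26721 probes), with lmFit and eBayes over all 31 arrays, two-sided, Benjamini-Hochberg adjusted over all of them at 0.05. The sample was always red, with no dye swap, so that a constant dye effect cancels between groups. Arrays correlated at -0.28 to 0.78. All 74 member names matched current symbols, and positions are those of the files, on rn4. The fit was tested on simulated data. The values of 1 member gene are not reported here; its probes are included in the counts.

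Genes were named where a probe passed, where a gene was among the 3 smallest unadjusted p of a tier, as core kinases, as the 5 widest spreads and as the list genes that passed. Alternatives were the filter, background, normalization, red channel alone, the deposited table, 1 probe per gene, slide and replicate blocks, the 2 groups alone, leaving out each array and, added after seeing the data, leaving out the 3 arrays lowest in granulocyte markers. Same-numbered samples of different groups correlated at -0.43 to 0.43 (25 pairs, median 0.05, 7 over 0.1). Samples of different groups and numbers correlated at -0.415 to 0.454 (286 pairs, median -0.01, 76 over 0.1). The numbers were not taken to pair samples in the main fit.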

Additional observations from a re-analysis of the deposited data

Results flagged for a closer look

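In WT, the group of 7 samples, 1 sample stood apart from the other 6 at 5 of the 68 tested member probes (7.35%). The gap was too wide for Dixon's test at 95%, whose nominal rate is about 1 in 20. The probes share the same 7 arrays and the share over all tested probes is not given here. The 7.35% can therefore not be read as particular to the members. At the called Map3k9 probe A_44_P768805, WT 1 had 0.125 where the others had 0.34 to 0.49, and without it the difference from WT was larger, -0.52 in CR-L. At Map3k7 A_44_P300018, WT 2 had 0.41 where the others had -0.25 to 0.02. Map3k10 A_44_P440691 was at 0.70 in WT 6 and at -0.06 to 0.15 in the others. Mapk1ip1l A_44_P776088 was at -0.24 in WT 6 and at -0.03 to 0.09 in the others. At Mapk8ip3 A_44_P469069, WT 7 had -0.48 where the others had -0.07 to 0.20.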

How the results depend on the processing

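Map3k9 in CR-L against WT passed in all 12 alternatives and all 31 fits with an array left out. Of the 12, 1 was chosen after seeing the data: the 3 arrays lowest in granulocyte markers left out together, which were also the 3 lowest at the called Map3k9 probe. Another, quantile normalization of the average intensities between arrays, leaves the log2 ratios unchanged and could only repeat the main result. Map3k11 failed with the red channel alone, which left 1 member call in CR-L against WT, and Map3k9 in CR against WT failed with the authors' deposited table (-0.51, adjusted p = 0.0647, limma), which left 0. Over all probes, CR against WT gave 129 calls, and 208 with red well above background on all arrays, 47 with red alone, 0 with the deposited table (smallest adjusted p = 0.0647), 264 with the replicate block, 231 with only the 2 groups and 78 without the 3 arrays low in granulocyte markers. Higher and lower calls there were 101 and 28, but 21 and 26 with red alone, 63 and 38 with the scanner's log ratio, 124 and 66 without background subtraction and 154 and 110 with the replicate block. In CR-L against WT they were 545 and 385, but 549 and 559 with the replicate block, where 2 member probes were called in CR-L and 1 in CR, as without it. The causes were not tested. With an array left out, calls over all probes ran from 496 (without WT 4) to 1294 (without CR-L 10) in CR-L against WT and from 20 (without WT 4) to 247 (without CR 9) in CR against WT, and member calls from 1 to 3 and from 0 to 1. Between CR-L and CR every alternative gave 0. No called value of a member probe or of the 4 list genes reversed; other probes were followed by counts alone. Over the 12 alternatives, counted with the quantile normalization that could only repeat the main result, Traf6 and Creb1 in CR-L passed in all. Gadd45a in CR-L passed in 10 and Traf1 in 8, and in CR Traf6 passed in 6 and Creb1 in 7. Probes that were dim on many arrays, such as Map3k10 A_44_P440691 (well above background on 12 of 31) and Mapk15 (14 of 31), are the least certain.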
